A study of Mus musculus with 6 samples.

Results

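A set of 9 genes of sterol export and of the liver X receptors (LXRs) were read in cultured mouse macrophages: Abca1, Abcg1, Apoe, Nr1h2, Nr1h3, Mylip, Lpcat3, Npc1 and Npc2. They were chosen by gene name, with earlier results of these data known. Each name matched 1 row among the 55401 genes of the deposited table. The study sequenced poly(A) RNA from bone marrow-derived macrophages, cells grown from the bone marrow of C57BL/6 mice in the cytokine M-CSF (40 ng/mL, with 10% serum) for 7 days. The labels give 3 libraries the genotype Mettl3-/- (KO) and 3 the genotype wild type (WT), and the design sets the transcripts of the 2 genotypes against each other. Mettl3 is the methyltransferase that places N6-methyladenosine (m6A) in messenger RNA. The sources used here do not give how the Mettl3 allele was made, which cells lack the gene or which treatment followed the culture. Whether replicates are separate animals or cultures is not stated, and p-values therefore speak to the spread between these 6 samples alone, which may be technical.

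Macrophages take in cholesterol with lipoproteins and cell debris and cannot break down its ring system, so they store it as esters or export it. Npc2 and Npc1 hand cholesterol out of the late endosome and lysosome. Oxidised forms of cholesterol bind the receptors LXRα (Nr1h3) and LXRβ (Nr1h2), which pair with a retinoid X receptor on DNA. Their targets include the transporters Abca1 and Abcg1, the secreted acceptor Apoe, the ubiquitin ligase Mylip (also called Idol), which limits lipoprotein uptake, and the phospholipid-remodelling enzyme Lpcat3.

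The libraries labelled KO held 68145877 to 77997742 estimated counts and the WT libraries 67280390 to 68658821. Mettl3 itself was not lower where it was labelled knocked out: it read 2.504, 2.56 and 2.93 FPKM in the libraries labelled KO, against 2.62, 2.91 and 2.26 FPKM in WT. FPKM is a fragment count divided by transcript length and by the size of the library. For Mettl3 the log2 fold change, labelled KO over WT, was 0.02 (edgeR adjusted p = 0.93, SE 0.114), and 18.4% of the gene's exonic bases overlap Tox4 on the other strand. FPKM here is a total over the gene, which need not show a deletion of single exons, so the label could not be checked by this value and every direction below refers to the libraries as labelled. The macrophage genes Csf1r, Adgre1 and Lyz2 were present in both groups, at 687 ± 5.61, 396 ± 12.2 and 6012 ± 62.5 FPKM in labelled KO and at 569 ± 1.15, 492 ± 2.78 and 14190 ± 212 FPKM in WT (SD, n = 3 each). Their levels differed: Csf1r was called higher (log2 fold change 0.256), and Adgre1 (-0.331) and Lyz2 (-1.255) were called lower. Over all tested genes, 7.01% were called higher and 5.67% lower. Among 9 macrophage markers, 3 were called higher and 2 lower. Of 8 monocyte markers 7 were called higher and 0 lower, with a summed level of 587 to 599 FPKM in labelled KO against 374 to 384 FPKM in WT. The largest part of that sum was Hp, with a mean of 305.7 FPKM in labelled KO and 164.6 FPKM in WT. The part of these markers in the results was not tested. Summed markers of dendritic cells were at 2.23 to 2.72 FPKM in labelled KO and 2.02 to 2.32 FPKM in WT, those of T and NK cells at 10.9 to 11.5 FPKM in labelled KO and 9.1 to 9.7 FPKM in WT, and those of B cells at 6.12 to 6.7 FPKM in labelled KO and 5.89 to 6.26 FPKM in WT. The T and NK sums did not overlap between the groups, with a list median log2 fold change of 0.26, and 0 genes of these 3 lists were called. Neutrophil markers summed to 127 to 138 FPKM in labelled KO and 113 to 118 FPKM in WT, and stromal and fat cell markers to 5.46 to 6.09 FPKM in labelled KO and 5.91 to 6.62 FPKM in WT. The stromal and fat cell list held 1 gene called higher (Dcn) and 1 called lower (Pecam1), with a median log2 fold change of -0.144. Each of these calls was lost in 5 of the 6 fits that left out 1 library. Neutrophil genes differed in direction, with 2 called higher, 1 lower and a median log2 fold change of -0.11: Mmp8 averaged 76.7 FPKM in labelled KO and 52.3 FPKM in WT, and S100a9, not called, 29.1 FPKM in labelled KO and 35.5 FPKM in WT. Of the called neutrophil genes, Ltf lost its call in 6 of the fits that left out 1 library, Mpo in 4 and Mmp8 in 0. The dendritic markers Cd209a and Siglech and the fat cell marker Adipoq were at a count of 0 in all 6 libraries.

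In the libraries labelled KO, Mylip fell by 36.9%, Abca1 fell by 6.39%, Npc2 fell by 6.28%, and the other 6 genes did not pass the test. All 9 genes passed the filter on low counts. Of these, 3 were called lower and 0 higher at an adjusted p under 0.05, beside a background of 5.67% of the 16256 tested genes called lower, 7.01% called higher and 12.7% called in either direction. Calls are from the quasi-likelihood test of edgeR, adjusted by Benjamini-Hochberg over all tested genes. The percent changes come from the same fit to scaled counts and differ slightly from ratios of the mean FPKM. Because the 9 genes were chosen with earlier results of these data known, their share beside the background is no independent test. The median log2 fold change of the 9 genes was -0.04, and that of all tested genes -0.005. On FPKM, 4 genes lay lower in every library labelled KO than in any WT library and 1 lay higher, where 14.6% and 19.1% of tested genes did so. RNA from bulk cultures does not separate fewer cells that express a gene from less RNA in each cell.

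**Figure D1:**
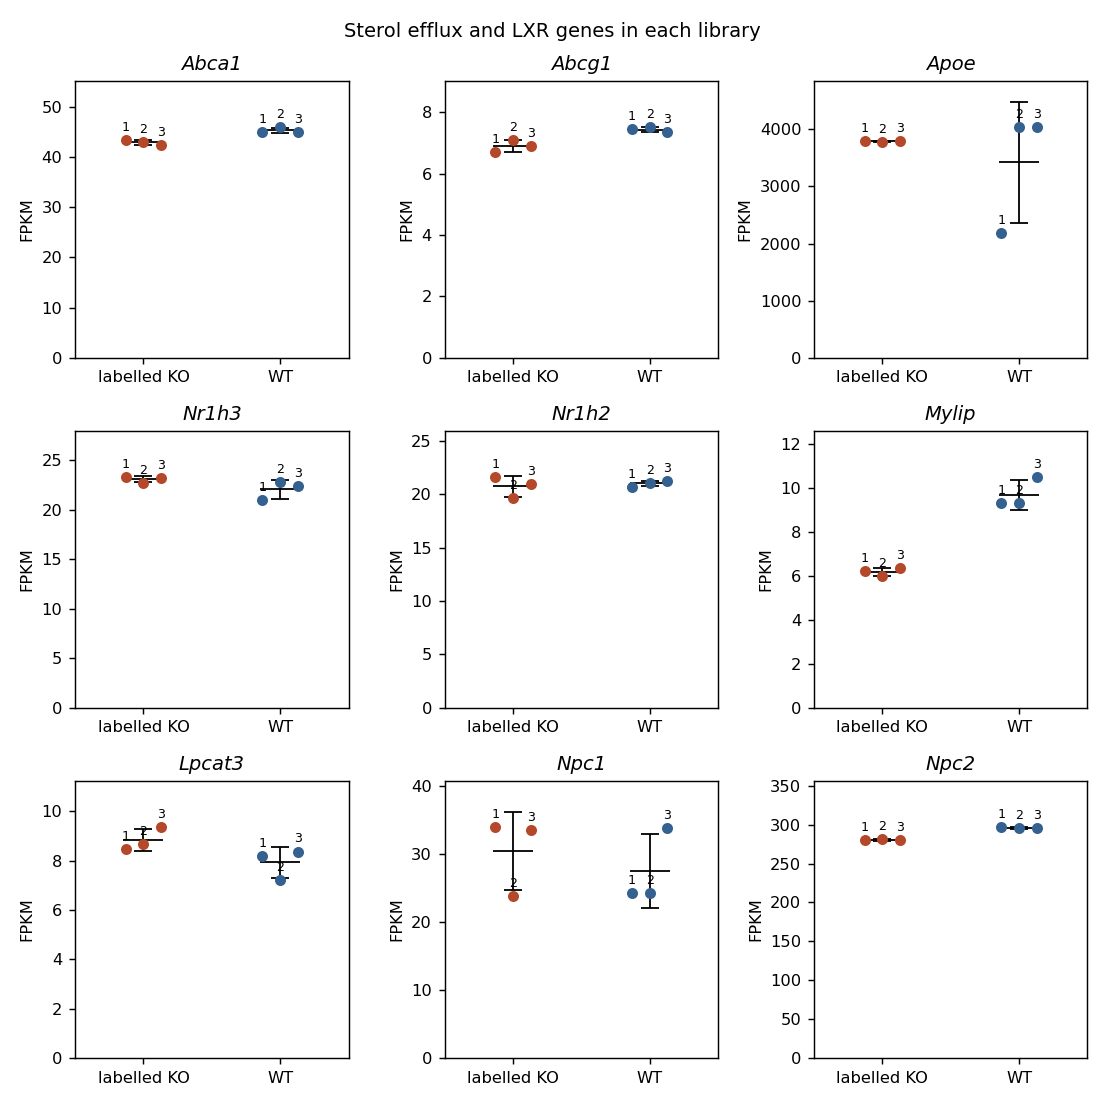
FPKM of the 9 genes (vertical axes from 0) in the 3 libraries labelled KO and the 3 WT libraries, numbered by replicate, with the mean and SD as black bars. Mylip sits at 5.97 to 6.35 FPKM in labelled KO against 9.28 to 10.5 FPKM in WT, WT replicate 1 stands far below the other libraries for Apoe, and Npc1 lies either at 23.8 to 24.3 FPKM or at 33.6 to 33.9 FPKM.

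The 2 receptor genes did not differ detectably between the groups. Nr1h3 (LXRα; ENSMUSG00000002108, chromosome 2, 91184061 to 91202834, minus strand of mm10) stood at 23.3, 22.7 and 23.2 FPKM in the libraries labelled KO, against 21.0, 22.8 and 22.35 FPKM in WT. The groups overlapped through WT replicate 2, and WT replicate 1 was the lowest. Nr1h3 had a fitted log2 fold change of 0.05 (edgeR adjusted p = 0.559, SE 0.043), with 95% limits of -0.06 and 0.15. Nr1h2 (LXRβ; ENSMUSG00000060601, chromosome 7, 44549616 to 44553949, minus strand) stood at 21.6, 19.64 and 20.9 FPKM in labelled KO, against 20.7, 21.1 and 21.2 FPKM in WT. Here the values of the libraries labelled KO lay on both sides of the WT values. For Nr1h2 the fitted log2 fold change was -0.04 (edgeR adjusted p = 0.666, SE 0.0436), with 95% limits of -0.14 and 0.07, or ratios of 0.907 and 1.05. These limits reflect the spread between these 6 samples alone.

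Nr1h3 exceeded Nr1h2 in all 6 libraries, by little. The Nr1h3 FPKM over the Nr1h2 FPKM was 1.08, 1.16 and 1.11 in labelled KO and 1.01, 1.08 and 1.05 in WT. The ratio averaged 1.11 ± 0.0387 in labelled KO and 1.05 ± 0.0338 in WT (SD, n = 3 each; exact two-sided permutation p = 0.2). With 3 libraries against 3 the smallest p this test can give is 0.1.

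Of the 2 transporter genes, Abca1 fell by 6.39% in the libraries labelled KO and Abcg1, 8.26% lower, did not pass the test. Abca1 (ENSMUSG00000015243, chromosome 4, 53030787 to 53159895, minus strand) encodes the pump that loads cholesterol and phospholipid onto lipid-poor apolipoprotein. It read 43.4, 43.0 and 42.4 FPKM in labelled KO, against 45.0, 46.0 and 45.0 FPKM in WT, on 34229 to 38509 estimated counts. The groups did not overlap, with a highest labelled KO value of 43.43 FPKM and a lowest WT value of 44.99 FPKM. Abca1 averaged 42.9 ± 0.534 FPKM in labelled KO and 45.3 ± 0.565 FPKM in WT (SD, n = 3 each), and the log2 fold change was -0.10 (edgeR adjusted p = 0.0221, SE 0.0188; exact two-sided permutation p = 0.1). With 1 library left out, Abca1 was called only in the fit without KO replicate 1 (edgeR adjusted p = 0.0443, and 0.0517 to 0.0683 in the other 5), though its log2 fold change stayed between -0.10 and -0.08. Abca1 was not called either by limma on log2(FPKM + 0.1), at a log2 fold change of -0.08 (limma adjusted p = 0.0815). With edgeR scaled to library totals alone its log2 fold change was -0.08 and the call was kept (edgeR adjusted p = 0.0462).

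Abcg1 (ENSMUSG00000024030, chromosome 17, 31057675 to 31117988, plus strand), the half-transporter that moves cholesterol to mature HDL, read 6.72, 7.09 and 6.90 FPKM in labelled KO. In WT it read 7.45, 7.52 and 7.35 FPKM, so its groups did not overlap either. Its log2 fold change was -0.12 (edgeR adjusted p = 0.0853, SE 0.0374), with 95% limits of -0.21 and -0.03. In edgeR restricted to genes with a mean of at least 1 FPKM it was -0.13 and passed (edgeR adjusted p = 0.048). Abca1 exceeded Abcg1 by 6.22 ± 0.212 times in labelled KO and by 6.09 ± 0.0501 times in WT on the FPKM scale (SD, n = 3 each; exact two-sided permutation p = 0.4).

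The start of Abca1 is where LXR acts on that gene in the textbook account, through a pair of half-sites 4 bases apart, so the promoter of Abca1 is shown. The window runs from 250 bases before to 50 bases after the RefSeq start (GRCm38.p6, chr4:53159846-53160145, minus strand, printed 5′ to 3′ along the gene). The long run of capitals marks the stretch closest to the element, read on the other strand, and the short run the TATAAA letters, which begin 29 bases before the start.

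Abca1: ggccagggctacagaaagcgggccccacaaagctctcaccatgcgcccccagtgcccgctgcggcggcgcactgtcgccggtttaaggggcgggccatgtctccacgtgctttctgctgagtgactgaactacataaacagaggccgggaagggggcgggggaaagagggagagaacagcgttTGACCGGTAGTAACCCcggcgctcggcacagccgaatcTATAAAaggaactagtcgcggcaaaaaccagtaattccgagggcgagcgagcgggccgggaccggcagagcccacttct

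Searched on both strands as AGGTCA, 4 bases of any kind and AGGTCA again, the element had no match with at most 2 mismatches in its 12 fixed letters in any of the 10 RefSeq windows of 7 members. At most 3 mismatches, a limit set after the sequences were seen, gave 1 window, that of Abca1. There the stretch begins 67 bases before the start and reads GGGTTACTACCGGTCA on the motif's strand, with the substitutions A1G, C5T and A11C counted from 1 at the motif's 5′ end. Of all 32851 promoter windows of the table, 3.02% held the element with at most 2 mismatches and 21.9% with at most 3, so the looser match is common.

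Apoe was the most abundant of the 9 genes, and 1 WT library decides the direction of its change. Apoe (ENSMUSG00000002985, chromosome 7, 19696109 to 19699188, minus strand) encodes apolipoprotein E, a secreted acceptor for exported cholesterol. It read 3804, 3783 and 3793 FPKM in labelled KO, against 2187, 4039 and 4034 FPKM in WT. WT replicate 1 stood at 54.2% of the mean of the other 2 WT libraries. The 3 libraries labelled KO lay between it and the other WT libraries. Over all 6 libraries the log2 fold change was 0.13 (edgeR adjusted p = 0.768, SE 0.223), with 95% limits of -0.40 and 0.67. Leaving out WT replicate 1 gave -0.11 and a call (edgeR adjusted p = 0.00128). Leaving out WT replicate 2 or WT replicate 3 gave 0.27 each, with no call (edgeR adjusted p of 0.588 and 0.587).

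A single WT library apart from its group was also seen outside Apoe. Of 1378 genes with a mean estimated count of at least 10000, 32 (2.32%) had 1 WT library over 1.5-fold away from the other 2, which lay within 1.1-fold of each other. In 14 of the 32 that library was WT replicate 1. Apoc2, a neighbour of Apoe that encodes a cofactor of lipoprotein lipase, also stood low there: it held 11956, 10566 and 12353 estimated counts in labelled KO, against 3009, 8488 and 8230 in WT. The gene model Gm44805, which overlaps Apoc2 and Apoc4, held 0, 0 and 6 estimated counts in labelled KO, against 3078, 0 and 0 in WT. Apoc4 held 40, 45 and 29 estimated counts in labelled KO, against 5, 25 and 34 in WT, and was thus also lowest in WT replicate 1, at few counts. Of the other neighbours looked at, Tomm40, Apoc1, Clptm1 and Nectin2 held 2118, 136, 10473 and 2729 estimated counts in WT replicate 1, beside 2140 to 2296, 143 to 184, 11282 to 12629 and 2552 to 2827 in the other WT libraries. These neighbours were chosen after their values were seen, and what set WT replicate 1 apart was not tested.

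Mylip showed the largest change of the 9 genes. The gene (ENSMUSG00000038175, chromosome 13, 45389742 to 45412022, plus strand) read 6.21, 5.97 and 6.35 FPKM in labelled KO, against 9.28, 9.28 and 10.5 FPKM in WT, on 1482 to 2603 estimated counts. Every library labelled KO lay below every WT library, and WT replicate 3 was the highest. The means were 6.18 ± 0.195 FPKM in labelled KO and 9.68 ± 0.685 FPKM in WT (SD, n = 3 each). The fitted log2 fold change was -0.67 (edgeR adjusted p = 0.00176, SE 0.0661), with 95% limits of -0.82 and -0.51, or a ratio between 0.565 and 0.704. The exact two-sided permutation p was 0.1, the smallest possible. With any 1 library left out the log2 fold change stayed between -0.69 and -0.60 and the edgeR adjusted p between 0.00563 and 0.0106. A change of this size was larger than that of 89.2% of tested genes, in absolute value, and Mylip was the single member called against a minimum fold change of 1.2 (glmTreat adjusted p = 0.0137).

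The promoter of Mylip is printed for comparison with that of Abca1, as the other fallen member with a TATAAA run (GRCm38.p6, chr13:45389492-45389791, plus strand, the same window around the RefSeq start). Capitals mark TATAAA, 32 bases before the start, which 13.6% of all promoter windows held on either strand.

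Mylip: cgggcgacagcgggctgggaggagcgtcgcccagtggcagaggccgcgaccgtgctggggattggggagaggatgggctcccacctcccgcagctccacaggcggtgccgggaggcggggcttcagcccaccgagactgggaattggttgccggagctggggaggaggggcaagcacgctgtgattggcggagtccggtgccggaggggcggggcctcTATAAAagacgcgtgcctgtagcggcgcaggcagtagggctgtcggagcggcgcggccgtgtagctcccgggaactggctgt

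In the Mylip window the closest stretch to the LXR element had 5 mismatches. The GC box GGGCGG, counted on both strands, stood 2 times in the Abca1 window, 1 time in that of Mylip, 3 times in that of Npc2, 6 times in that of Lpcat3 and 0 times in those of Apoe, Nr1h2 and Nr1h3, and 35.7% of all windows held it at least once. These are matches of letters in a short window and say nothing of elements elsewhere in the genes.

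Lpcat3 (ENSMUSG00000004270, chromosome 6, 124663027 to 124704418, plus strand) puts polyunsaturated chains into membrane phospholipids. It read 8.49, 8.68 and 9.35 FPKM in labelled KO, against 8.20, 7.21 and 8.37 FPKM in WT. It was the 1 member whose libraries labelled KO all lay above WT, by a narrow margin. A log2 fold change of 0.14 (SE 0.0743) did not pass (edgeR adjusted p = 0.296), with 95% limits of -0.04 and 0.32, and it was 0.08 without WT replicate 2. Lpcat3 shares 10.2% of its exonic bases with Emg1 on the opposite strand, and the sources used here do not say whether counting used the strand. Emg1 held 2061 to 2245 estimated counts in labelled KO and 1764 to 1876 in WT, beside 2184 to 2684 in labelled KO and 1809 to 2107 in WT for Lpcat3. The part of shared reads was not tested.

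The 2 lysosomal carriers behaved differently from library to library: of the 9 genes Npc2 spanned the narrowest range over the 6 libraries (highest over lowest 1.06), while Npc1 spanned 1.43. Npc2 (ENSMUSG00000021242, chromosome 12, 84754562 to 84773152, minus strand), the soluble protein that picks cholesterol out of lysosomal vesicles, read 279.8, 281.4 and 280.2 FPKM in labelled KO, against 296.6, 295.5 and 295.4 FPKM in WT. All libraries labelled KO lay below all WT libraries. Npc2 averaged 280.5 ± 0.838 FPKM in labelled KO and 295.8 ± 0.683 FPKM in WT (SD, n = 3 each), with coefficients of variation of 0.299% in labelled KO and 0.231% in WT. Npc2 fell by 6.28% (log2 fold change -0.09, edgeR adjusted p = 0.00206, SE 0.00969; exact two-sided permutation p = 0.1). The log2 fold change stayed between -0.10 and -0.09 with any 1 library left out (edgeR adjusted p from 0.00976 to 0.0113), and against a minimum fold change of 1.2 the call was not made. With edgeR scaled to library totals alone the log2 fold change of Npc2 was -0.08 and the call was kept (edgeR adjusted p = 0.00645).

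Npc1 (ENSMUSG00000024413, chromosome 18, 12189692 to 12236400, minus strand), the membrane protein that takes cholesterol over from Npc2, split into a high and a low level within each genotype. It read 33.9, 23.8 and 33.6 FPKM in labelled KO, against 24.3, 24.3 and 33.8 FPKM in WT. KO replicates 1 and 3 and WT replicate 3 were the high libraries, and no library lay between 24.33 and 33.6 FPKM. The estimated counts split in the same way, at 32358, 20672 and 33356 in labelled KO and 20849, 21079 and 29445 in WT. Between the groups the log2 fold change was 0.13 (edgeR adjusted p = 0.718, SE 0.182; exact two-sided permutation p = 0.9). It ran from 0.05 to 0.31 with 1 library left out, being 0.28 without KO replicate 2, 0.31 without WT replicate 3 and 0.05 in each of the other 4 fits, none of them called (edgeR adjusted p from 0.329 to 0.932). Of the 1378 genes with a mean count of at least 10000, 41 (2.98%) varied over 1.3-fold within both groups. Rmc1 on the opposite strand shares 4.52% of the exonic bases of Npc1 and held 2728 to 3493 estimated counts in labelled KO and 2941 to 3441 in WT. What set the high libraries apart was not tested.

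**Figure D2:**
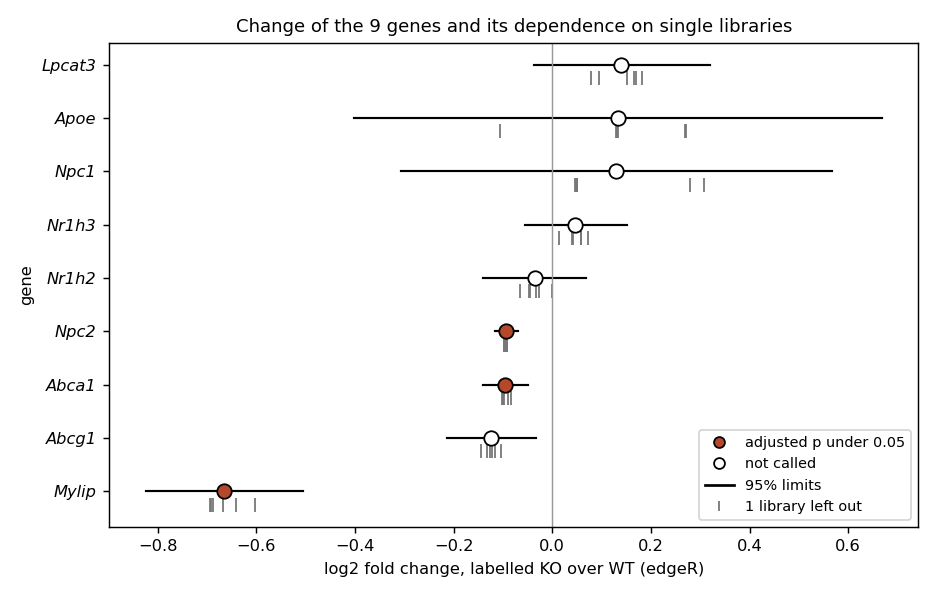
The edgeR log2 fold change of each of the 9 genes, labelled KO over WT, with 95% limits as black lines and the 6 fits that each leave out 1 library as grey ticks. Mylip lies at -0.67 with limits of -0.82 and -0.51, Npc2 at -0.09 and Abca1 at -0.10 have narrow limits, and the ticks of Apoe fall on both sides of 0.

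On the per-length scale of FPKM the order of the 9 genes was Apoe, Npc2, Abca1, Npc1, Nr1h3, Nr1h2, Lpcat3, Mylip and Abcg1, by the median over the 6 libraries. That median was 3798 FPKM for Apoe, 288.4 for Npc2, 44.2 for Abca1, 29.0 for Npc1, 22.75 for Nr1h3 and 21.0 for Nr1h2. Lpcat3, Mylip and Abcg1 had medians of 8.43, 7.82 and 7.22 FPKM. Apoe exceeded Npc2 13.2-fold and Npc2 exceeded Abca1 6.52-fold. The ranges of Nr1h3 and Nr1h2 overlapped, as did those of Lpcat3 and Mylip and of Mylip and Abcg1. Mylip lay above both Lpcat3 and Abcg1 in the 3 WT libraries and below both in the 3 libraries labelled KO.

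Npc2, Mylip and Abcg1 had the highest likeness to Abca1 among the other members across the 6 libraries. Pearson's r of log2 CPM with Abca1 over 6 libraries was 0.948 for Npc2, 0.916 for Mylip, 0.886 for Abcg1, 0.444 for Nr1h2, -0.388 for Nr1h3, -0.177 for Apoe, -0.333 for Npc1 and -0.848 for Lpcat3. Among 6284 tested genes with a mean of at least 5 FPKM, the 3 most like Abca1 were Rps3 (r = 0.9955), Selenop (0.9941) and Plrg1 (0.994). The 3 most like Abcg1 were Tcirg1 (0.9957), Alox5ap (0.9951) and Arrdc1 (0.995). Each of these 6 was lower in every library labelled KO than in any WT library, as Abca1 and Abcg1 were. Of all tested genes, 14.6% lay lower in this way. The points share a genotype label within each group, so a gap between groups alone gives a high r, and Rps3 can share reads with pseudogene copies.

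The motif GGACT, the core of the sequence that the Mettl3 complex prefers, was below its median density in the longest coding transcripts (GENCODE M21) of Mylip and Abca1 and above it in that of Npc2. It stood 3 times in the transcript of Mylip (0.979 per kb), 7 times in that of Abca1 (0.682 per kb) and 5 times in that of Npc2 (1.52 per kb). The median of 12545 tested genes with a coding transcript was 1.05 per kb. The other members ran from 0.512 per kb in Nr1h3 to 1.5 per kb in Nr1h2, with Apoe at 0.71, Lpcat3 at 0.877, Abcg1 at 1.03 and Npc1 at 1.34. Methylation itself was not measured in these libraries.

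Around the 9 genes, 10 lists of the sterol pathway held 108 other genes, of which 98 were tested, 13 called higher and 16 called lower in the libraries labelled KO. That is 29.6% of those tested, against 12.7% of all tested genes, with a median log2 fold change of 0.05 beside -0.005. The lists were chosen with earlier results of these data known, so this share is no independent test. They also hold many well-expressed genes, and the share was not tested against genes of like level. With 1 library left out, 16 to 21 of the listed genes were called, beside 1244 to 1339 over all genes. The lists moved in no single direction. Each list's counts below stand beside the same background, 7.01% of all tested genes called higher and 5.67% called lower. Abca7 and Pltp, which stood in more than 1 list, were counted 1 time in these totals.

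**Figure D3:**
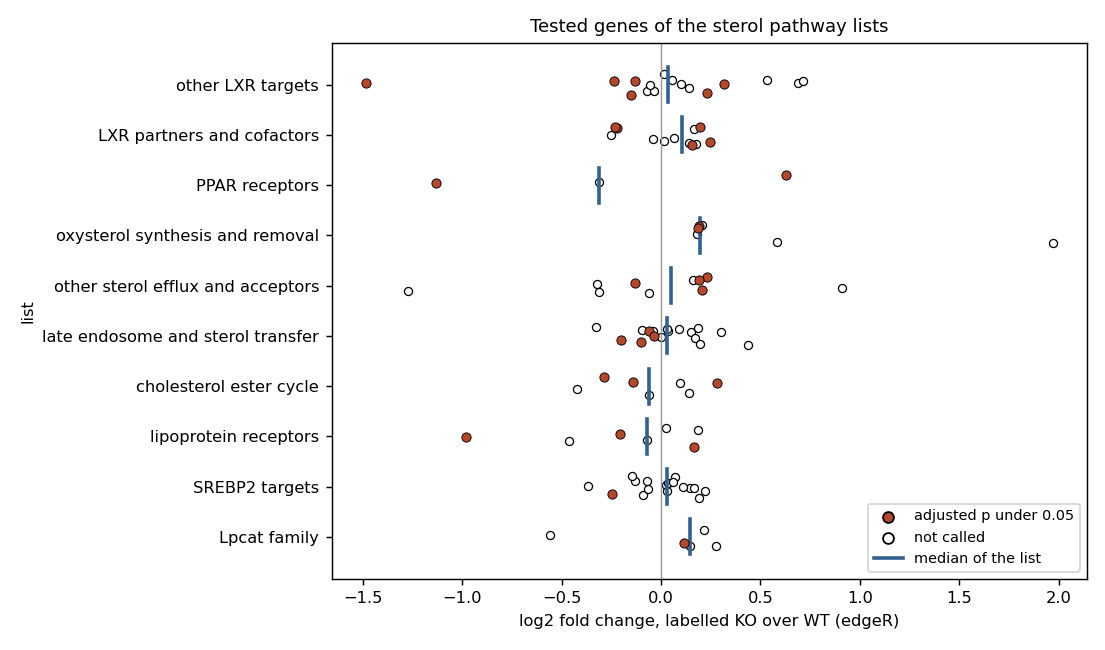
The edgeR log2 fold change of every tested gene of 10 pathway lists, labelled KO over WT (1 row per list, filled where the adjusted p was under 0.05, with the list's median as a blue bar). Called genes lie on both sides of 0 in most lists, Cd5l at -1.48 and Pparg at -1.13 lie farthest to the left among them, and the medians lie between -0.31 and 0.20.

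Other genes listed here as LXR targets did not move as a block. Of 18 listed, 16 were tested, 2 rose (Mertk and Abca7) and 4 fell, with a median log2 fold change of 0.04. Cd5l, which encodes a secreted macrophage protein, fell to 4.57 ± 0.556 FPKM in labelled KO, against 12.6 ± 0.191 FPKM in WT (SD, n = 3 each; log2 fold change -1.48, edgeR adjusted p = 0.000338, SE 0.0971). Pltp, the phospholipid transfer protein of plasma lipoproteins, fell by 0.13 on the log2 scale (238.4 ± 0.435 FPKM in labelled KO, 258.3 ± 1.104 FPKM in WT, edgeR adjusted p = 0.00211). Mertk, a receptor for dying cells, rose by 0.32 (97.3 ± 1.23 FPKM in labelled KO, 77.2 ± 0.852 FPKM in WT, edgeR adjusted p = 0.000267). Lpl, lipoprotein lipase, fell by 0.15 (edgeR adjusted p = 0.0362), and with 1 library left out it was called only when that was WT replicate 1 (0.0782 to 0.105 otherwise). Lpl was also not called with library totals alone (edgeR adjusted p = 0.0544), without a filter (edgeR adjusted p = 0.0558) or by limma on log2(FPKM + 0.1) (adjusted p = 0.0786). Srebf1, the LXR target that drives fatty acid synthesis, read 7.63, 8.61 and 7.71 FPKM in labelled KO, against 7.14, 7.33 and 8.96 FPKM in WT, and its groups overlapped. Apoc2 was at a log2 fold change of 0.69 with all libraries (edgeR adjusted p = 0.284, SE 0.357) and at 0.35 without WT replicate 1 (edgeR adjusted p = 0.00577). Lpl, Srebf1 and Apoc2 were chosen after their values were seen.

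Among receptor partners and cofactors, 3 of 12 tested genes were called higher, 2 lower and 7 not at all (median 0.10). The coactivator gene Ncoa2 rose to 5.51 ± 0.0687 FPKM in labelled KO, against 4.59 ± 0.0734 FPKM in WT (SD, n = 3 each; log2 fold change 0.24, edgeR adjusted p = 0.00441). The acetyltransferase gene Ep300 rose by 0.20 on the log2 scale (17.25 ± 0.260 FPKM in labelled KO, 14.9 ± 0.0658 FPKM in WT, edgeR adjusted p = 0.00268). Gps2, a subunit of the corepressor complex that binds unliganded receptors, fell by 0.23 (edgeR adjusted p = 0.0222), a call kept only in the fit without WT replicate 1 (0.0657 to 0.0766 in the other 5). The list held 2 to 4 called genes with 1 library left out. Among the PPAR receptors and their coactivators, 1 of 3 tested genes rose and 1 fell. Pparg, a nuclear receptor that induces Nr1h3 and Cd36 in macrophages, read 0.592, 0.838 and 0.719 FPKM in labelled KO, against 1.48, 1.76 and 1.43 FPKM in WT. At that low level the log2 fold change was -1.13 (edgeR adjusted p = 0.00738, SE 0.165), and -0.58 on the log2(FPKM + 1) scale (limma adjusted p = 0.00963). Its coactivator gene Ppargc1b rose by 0.63 (3.25 ± 0.263 FPKM in labelled KO, 2.08 ± 0.233 FPKM in WT, edgeR adjusted p = 0.0137). The call of Ppargc1b was lost when WT replicate 1 was left out (edgeR adjusted p = 0.05).

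Enzymes that make or remove oxysterols, the ligands of the receptors, included 2 called genes of 6 tested, both higher. Cyp27a1, which makes 27-hydroxycholesterol, read 31.1, 32.9 and 33.7 FPKM in labelled KO, against 27.85, 27.8 and 28.9 FPKM in WT (log2 fold change 0.19, edgeR adjusted p = 0.0359). Hsd3b7, which acts on oxysterols on their way to bile acids, read 26.45, 25.1 and 26.1 FPKM in labelled KO, against 23.3, 22.1 and 22.01 FPKM in WT (log2 fold change 0.19, edgeR adjusted p = 0.0291). Neither gene's groups overlapped, where 19.1% of all tested genes lay higher in this way. With 1 library left out, Cyp27a1 was called only without KO replicate 1 (edgeR adjusted p of 0.0685 to 0.115 in the other fits), and it was not called without the filter (edgeR adjusted p = 0.0528). Hsd3b7 was called only without WT replicate 1 (0.0537 to 0.104 in the other fits), so each such fit held 0 or 1 called gene of the list.

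Of 10 tested efflux and acceptor genes other than Abca1 and Abcg1, 3 were called higher and 1, Pltp, lower (median 0.05, and 2 to 3 called with 1 library left out). Abca7 and Pltp were also on the list of LXR targets, so their calls appear in both counts. Abca7, a relative of Abca1, rose to 9.245 ± 0.0575 FPKM in labelled KO, against 7.8 ± 0.0697 FPKM in WT (SD, n = 3 each; log2 fold change 0.23, edgeR adjusted p = 0.00606). Abca3, a phospholipid pump, rose by 0.19 (edgeR adjusted p = 0.0143), but not when KO replicate 1 or KO replicate 3 was left out (0.0568 and 0.0581). Scarb1, the HDL receptor, was called 0.21 higher with all libraries (edgeR adjusted p = 0.0421) and in none of the 6 fits with 1 library left out (0.0734 to 0.117), nor without the filter (edgeR adjusted p = 0.0656) or by limma on log2(FPKM + 0.1) (adjusted p = 0.0502). Scarb1 was chosen after its value was seen.

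Late endosomal and sterol transfer genes showed 0 higher and 4 lower of 17 tested, although their median was 0.03. Lipa, the lysosomal lipase that frees cholesterol from its esters, read 96.7, 98.1 and 97.9 FPKM in labelled KO, against 110.5, 112 and 110.3 FPKM in WT (log2 fold change -0.20, edgeR adjusted p = 0.000569, SE 0.0151). Lamp2, a lysosomal membrane protein, fell by 0.10 on the log2 scale (edgeR adjusted p = 0.00405), close to the change of Npc2. Psap, prosaposin, fell by 0.04 (edgeR adjusted p = 0.0193), but not when any KO replicate or WT replicate 2 was left out (0.0545 to 0.0764). Psap was not called either by DESeq2 (adjusted p = 0.424), by edgeR scaled to library totals alone (-0.02, adjusted p = 0.227) or by limma on log2(FPKM + 0.1) (-0.02, adjusted p = 0.552). The list held 2 to 4 called genes with 1 library left out and 2 with library totals alone. In the ester cycle, 1 of 7 genes rose and 2 fell. Soat1, which esterifies cholesterol, fell to 45.5 ± 0.261 FPKM in labelled KO, against 49.7 ± 0.364 FPKM in WT (SD, n = 3 each; log2 fold change -0.14, edgeR adjusted p = 0.00285). Plin2, which coats lipid droplets, fell by 0.28 (edgeR adjusted p = 0.00133). Abhd5, which activates droplet lipolysis, rose by 0.28 (edgeR adjusted p = 0.0298), a call kept only in the fit without WT replicate 3 (0.0554 to 0.0938 in the other 5).

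Among lipoprotein receptors and their helpers, 1 of 7 tested genes rose and 2 fell, with a median log2 fold change of -0.07 (2 to 3 called with 1 library left out). Cd36, a scavenger receptor for oxidised lipoprotein, read 23.6, 24.3 and 23.75 FPKM in labelled KO, against 45.3, 47.35 and 47.05 FPKM in WT. The groups lay far apart, and Cd36 fell by 0.98 on the log2 scale (edgeR adjusted p = 2.5e-05, SE 0.0309). Lrpap1, a chaperone of receptors of this family, rose by 0.16 (edgeR adjusted p = 0.0126).

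**Figure D4:**
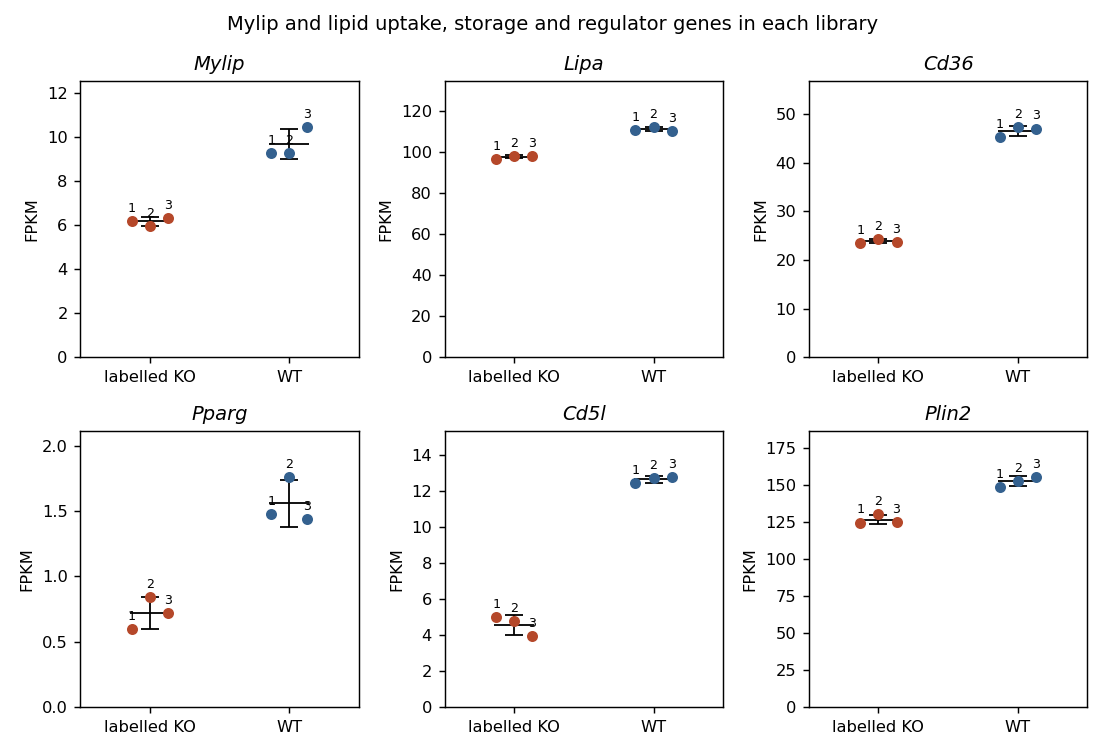
FPKM (vertical axes from 0) of Mylip, Lipa, Cd36, Pparg, Cd5l and Plin2 in the 3 libraries labelled KO and the 3 WT libraries, numbered by replicate, with mean and SD as black bars. The 6 genes were picked from those called lower, so their shared direction follows from the choice. Genes of these lists called higher, among them Ppargc1b, Mertk, Abhd5 and Lrpap1, are not shown. None of the 6 overlaps between groups, where 14.6% of all tested genes lay lower in this way. Cd36 is at 23.6 to 24.3 FPKM in labelled KO against 45.3 to 47.35 FPKM in WT.

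Genes that answer to a shortage of sterol through SREBP2 mostly did not pass the test. Of 17 listed and tested, 0 were called higher and 1 lower, with a median log2 fold change of 0.03 (0 to 1 called with 1 library left out). The gene that fell was Insig1, which holds SREBP in the endoplasmic reticulum: it read 12.2, 12.5 and 12.7 FPKM in labelled KO, against 15.15, 14.05 and 14.7 FPKM in WT (log2 fold change -0.25, edgeR adjusted p = 0.0144). Insig1 was not called when KO replicate 1, KO replicate 2, WT replicate 1 or WT replicate 3 was left out (edgeR adjusted p of 0.0522 to 0.0619). Beside Lpcat3, 1 of 5 tested genes of related acyltransferases was called. It was Lpcat2, which makes platelet-activating factor, higher by 0.11 on the log2 scale (68.4 ± 1.02 FPKM in labelled KO, 62.5 ± 1.13 FPKM in WT, edgeR adjusted p = 0.0282), and it was kept only in the fit without WT replicate 1 (0.065 to 0.0891 in the other 5).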

How the data were processed

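RNA-seq was read from 6 libraries of macrophages, 3 labelled KO and 3 WT, grouped by the genotype in their labels. The submitters' processing notes name cutadapt 1.9, HISAT2 2.0.4, StringTie 1.3.4d and build mm10. Settings, annotation release and strand: not given in the sources used here. Per the file headers, the authors deposited an FPKM and an estimated count for each gene and library, the count as whole numbers that favour multiples of 4 among low values (36.9% to 40.4% of counts from 1 to 20, where an even spread gives 25%).

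edgeR 4.0.16 (R 4.3.3) tested the rounded estimated counts: TMM, filterByExpr at a minimum count of 10 and minimum total of 15, then glmQLFit with glmQLFTest. Benjamini-Hochberg adjustment ran over 16256 genes, and an adjusted p under 0.05 made a call. Each SE was derived from the fold change and F, and 95% limits used a t distribution with 6.5 degrees of freedom. The test was tried on simulated data with known changes. Those changes were larger than the ones called for Abca1 and Npc2, so the trial does not speak to changes that small. Alternatives were DESeq2 1.42.0, limma 3.58.1 on log2(FPKM + 0.1), + 1 and + 0.01, other size factors and filters, a replicate block, glmTreat against 1.2-fold and each library left out.

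The members and lists were chosen with earlier results of these data known. Some genes that the lists or the rule would take are not reported here. The rule for named genes took all members, Mettl3, Lyz2, Csf1r, Adgre1, up to 3 called genes of each list by adjusted p, and the 3 genes most like Abca1 and Abcg1. Lpl, Scarb1, Srebf1, Apoc2, Gm44805, Apoc1, Apoc4, S100a9, Tomm40, Clptm1, Nectin2, Emg1 and Rmc1 were named after their values were seen, and the TATAAA search was added after the promoters were seen. Promoters come from RefSeq (GRCm38.p6), with 250 bases before and 50 after a start, and transcripts from GENCODE M21. Coordinates are those of the deposited table.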

Additional observations from a re-analysis of the deposited data

How the results depend on the processing

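All 9 genes kept their direction under the 10 alternatives that used every library. The Abca1 call was lost with limma on log2(FPKM + 0.1), + 1 and + 0.01 (log2 fold change -0.078, -0.077 and -0.079) and against a fold change of 1.2 (-0.095), as was the Npc2 call against 1.2 (-0.094), which left 1 of the 9 called. Abcg1 passed at -0.13 with a mean FPKM of at least 1. Same-numbered deviations from the group means correlated at 0.022, 0.011 and 0.009 over 5216 genes, and different-numbered ones at -0.054 to 0.04. No pairing by replicate number was seen, though these values cannot show whether the libraries were paired by design. A replicate block nonetheless left Abca1 at -0.095 and uncalled (edgeR adjusted p = 0.0767), and called 1012 genes in all and 14 of the pathway lists, against 2060 and 29 without it. The other alternatives called up to 2684 genes (DESeq2). With 1 library left out, the calls numbered 1244 to 1339 over all genes, 16 to 21 over the lists and 2 to 3 of the 9 genes. In those fits the log2 fold change ran from -0.103 to -0.084 for Abca1, -0.145 to -0.105 for Abcg1, -0.106 (called, without WT replicate 1) to 0.271 for Apoe, -0.694 to -0.603 for Mylip, -0.097 to -0.091 for Npc2, 0.046 to 0.308 for Npc1, 0.078 to 0.182 for Lpcat3, 0.014 to 0.073 for Nr1h3 and -0.066 to 0 for Nr1h2. It changed sign for 3 genes that were never called: Srebf1 (-0.045 to 0.126), Mettl3 (-0.066 to 0.112) and the dendritic marker Batf3 (-0.083 to 0.37). Fewer libraries were used in these fits, and beyond that the cause was not tested. Depth was 67280390 to 77997742 estimated counts a library.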
